A study of Mus musculus with 24 samples.

Results

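Microglia (MG), the resident macrophages of the brain parenchyma, were compared directly after cell sorting with Kupffer cells (KCs) of the liver, peritoneal macrophages (PMs) of the peritoneal cavity and alveolar macrophages (AMs) of the lung. The comparison used the ex vivo libraries only, which were 12 of the 24 libraries of the series, with 3 libraries for each of the 4 populations. The cultured cells of the series were not used here. RNA sequencing gave counts of reads per gene, and the question was which genes and gene groups were higher or lower in MG than in each of the other tissues.

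All 4 populations came from female C57BL/6J mice that the labels give as 8 to 12 weeks old, and no mutant allele, transgene or treatment is named for any group. MG were sorted as CD45low CD11b+ cells, KCs as F4/80+ TIM-4+ cells within the CD45+ CD11b+ gate, PMs as CD45+ CD115+ CD11b+ F4/80high cells and AMs as CD45+ SiglecF+ CD11blow cells. The genes of these surface proteins (Ptprc, Itgam, Adgre1, Timd4, Csf1r and Siglecf) helped to choose the cells, so their differences between the populations are not independent findings. Brains were homogenized mechanically in the cold and cleared on Percoll, livers and lungs were digested with enzymes at body temperature, and peritoneal cells were obtained by lavage. Tissue and preparation therefore cannot be told apart in any comparison of MG with another population. The submitters call the 3 libraries of a group biological replicates, but the sources used here do not say whether each library held the cells of 1 mouse, so p-values measure only the spread between these libraries.

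MG settle in the brain early in development and then renew themselves locally. Their survival depends on the receptor CSF1R, and their mature program depends on transforming growth factor beta (TGF-beta), on the transcription factor SALL1 and on factors of the MEF2 family. Mature MG carry purinergic, fractalkine and other receptors for signals from neurons and astrocytes, and their processes survey the tissue. KCs, PMs and AMs are set up by other signals, such as oxysterols and bone morphogenetic proteins in the liver, retinoic acid in the peritoneum and granulocyte-macrophage colony-stimulating factor in the lung.

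The libraries held 29569486 to 40277178 reads on genes, and 16596 to 19220 genes had a read in a given library. Expression is given in CPM, the read count of a gene divided by the size of its library, with library sizes adjusted among these 12 libraries by the TMM method, and 3 reads in a library, the upper limit at 95% confidence for a gene without a read, correspond to 0.0695 to 0.110 CPM. This limit covers counting error only. The MG libraries were the most alike, with a mean distance of 73.9 between them on scaled log2 CPM, against 102 among AMs, 114 among PMs and 202 among KCs. KC replicate 1 stood apart from the other KC libraries. The chi-squared per degree of freedom of its counts was 347 and 333 against the other KC libraries, which gave 93.4 between each other, and its summed T and NK cell markers reached 324 CPM, against at most 0.729 CPM in MG. The part of those cells in the KC values was not tested, and counts that change by over 1.5 times without this library are given with it and without it.

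The labelled identity of MG was checked with P2ry12 and Sall1. P2ry12 encodes the purinergic receptor through which MG processes move toward ATP and ADP, and Sall1 encodes a zinc finger repressor that is needed for MG identity. P2ry12 was at 5672, 6033 and 5755 CPM in the MG libraries, at 70.0, 218 and 189 CPM in KCs, at 22.0, 18.1 and 16.0 CPM in PMs and at 20.8, 19.9 and 18.9 CPM in AMs. Sall1 was at 716, 695 and 786 CPM in MG, and the highest of the 9 other libraries held 0.146 CPM. Every MG library was thus far above every other library for both genes. Apart from Siglecf and Garnl3, the markers of the other sorted macrophages were close to absent in MG. The 8 markers of KCs summed to 3.44 to 4.82 CPM in MG and to at least 16818 CPM in KCs. The 8 markers of AMs summed to 41.5 to 48.1 CPM in MG, nearly all of it Siglecf. The 8 markers of large peritoneal macrophages summed to 71.9 to 72.8 CPM in MG, nearly all of it Garnl3, and to 3.40 to 4.95 CPM in AMs. Garnl3 was at 70.2, 70.1 and 69.0 CPM in MG and at 352, 239 and 265 CPM in PMs.

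Markers of other cells of the brain were also summed. Neuron markers summed to 1.28 to 1.76 CPM in MG, and the markers of border-associated macrophages, the macrophages of the meninges and perivascular spaces, summed to 11.6 to 15.5 CPM. Of 8 astrocyte markers 4 could be tested, and of these the glutamate transporter gene Slc1a3 was called higher in MG (211, 209.5 and 207 CPM, against at most 46.9 CPM elsewhere), while the astrocyte gene Aldh1l1 was called lower in MG than in each of the other tissues. The call of Slc1a3 ended with all 24 libraries in 1 model. Oligodendrocyte markers summed to 184 to 192 CPM in MG and to 185 to 232 CPM in the other libraries. Of the 5 that could be tested, none was called in all 3 contrasts. In MG 1 was called higher than in PMs and 2 higher than in AMs, with none lower. Their median log2 differences were 0.96 from KCs, 1.39 from PMs and -0.05 from AMs. The hepatocyte gene Ttr, which the choroid plexus also makes in quantity, was called higher in MG, at 20.2, 25.3 and 138 CPM, with 1 MG library far above the other two. Its call ended without MG replicate 3, KC replicate 2 or KC replicate 3 (log2 difference from the nearest tissue 1.34 to 2.62). No other hepatocyte marker was called in all 3 contrasts. Among further lists of 7 or 8 markers, those of brain endothelium summed to 41.4 to 49.4 CPM in MG, of monocytes to 4.64 to 6.39 CPM, of B cells to 54.4 to 59.2 CPM, of erythroid cells to 0.139 to 4.87 CPM and of fibroblasts and mesothelium to 0.176 to 0.287 CPM. Neutrophil markers summed to 699 to 729 CPM in MG, nearly all of it the receptor gene Csf3r, while S100a8 had no read in MG and lost its call under limma-voom. The 8 genes shared by macrophages in general summed to 18695 to 20618 CPM in MG. In bulk samples, fewer cells of a type and less RNA per cell cannot be told apart.

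A gene was called when the adjusted p of edgeR's quasi-likelihood test was under 0.05 and the log2 fold change was beyond 1.5, and 15732 genes were tested. The 3 contrasts share the MG libraries. Against KCs, 1476 genes (9.38% of those tested) were higher in MG and 2286 (14.5%) were lower, a split that limma-voom gave as 2074 and 2064. Against PMs, 1802 genes (11.5%) were higher and 2239 (14.2%) were lower. Against AMs, 2865 genes (18.2%) were higher and 2371 (15.1%) were lower, the most calls of the 3. Against the mean of the 3 tissues, 2216 genes (14.1%) were higher and 1940 (12.3%) were lower. The median log2 difference of all genes was -0.07 against KCs, 0.04 against PMs and 0.10 against AMs.

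**Figure D1:**
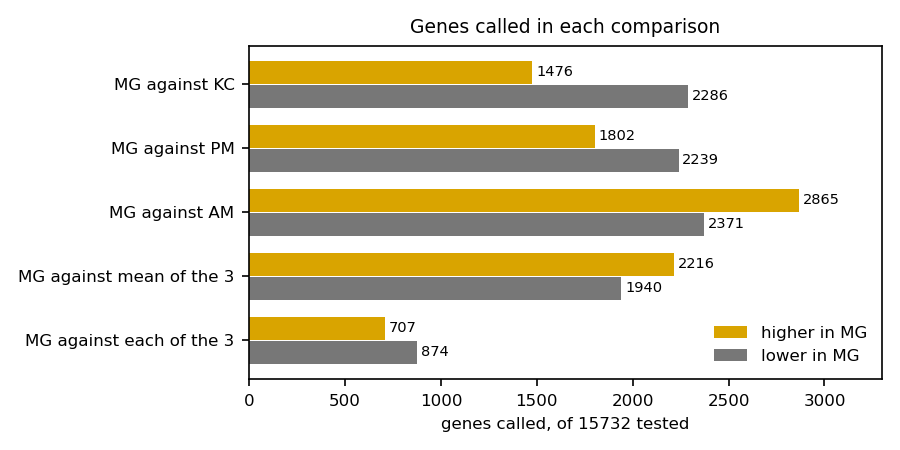
Number of genes called higher (upper bar of each pair) or lower (lower bar) in sorted MG against KCs, PMs, AMs and their mean, and against each of the 3 tissues, out of 15732 genes tested. The lists against each of the 3 tissues hold 707 genes higher and 874 lower. They are the genes shared by the single contrasts with KCs, PMs and AMs (1476 to 2865 genes per direction), so they cannot be larger than any of these.

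The genes called against all 3 tissues made up the identity of the brain macrophages as the design defines it. MG were higher than in every other tissue for 707 genes (4.49% of those tested) and lower for 874 genes (5.56%). The lower genes did not outnumber the higher ones in every fit: limma-voom gave 1032 higher and 701 lower genes, separate fits of each contrast on its 6 libraries gave 791 and 678, and the fit without KC replicate 1 gave 871 and 820. In 706 of the 707 genes, the lowest MG library was above the highest of the 9 others, whereas the MG libraries were wholly below the others in 781 of the 874. Libraries without overlap were found for 2511 genes (16.0%) above and 2139 genes (13.6%) below. The tissue nearest to MG was the liver for 364 of the 707 higher genes, the peritoneum for 204 and the lung for 139. The 2 groups of genes were of unequal weight in the cells. The higher genes took 16.1% to 16.8% of all normalized counts in MG, and at most 1.83% in any other library. The lower genes took 0.932% to 0.965% of the counts in MG, but 12.7% to 14.5% in KCs, 28.2% to 29.1% in PMs and 21.3% to 24.2% in AMs. Since the calls chose these genes, the shares are a description.

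Many of these genes were near the limit of detection on 1 side. Of the 707 higher genes, 268 reached 1 CPM in none of the other libraries and 67 had no read in any of them, and 211 were more than 5 log2 units above the nearest tissue. Of the 874 lower genes, 453 reached 1 CPM in no MG library, 105 had no read in MG, and 258 lay more than 5 log2 units under the nearest tissue. Protein-coding genes made up 595 of the higher and 786 of the lower genes. A further 31 of the higher genes are annotated as antisense and 29 as long intergenic RNAs. The library kit does not keep the strand, so reads of an antisense gene cannot be told apart from those of its partner.

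The 15 genes that stood farthest above the nearest tissue, among called genes with an average log2 CPM above 5 whose MG libraries overlapped no other, were Sall1, Sall3, Siglech, Upk1b, Tgfa, Nav3, Slc2a5, Sparc, Cx3cr1, Tmem119, Serpine2, Fcrls, Crybb1, Ecscr and Gpr34. They include the SALL transcription factors, receptors with immunoglobulin or seven-transmembrane folds (Siglech, Fcrls, Cx3cr1 and Gpr34), secreted proteins (Tgfa, Sparc and Serpine2) and a fructose transporter (Slc2a5). Sall1 lies on chromosome 8 (8:89027235-89044162, minus strand, mm10). Over the 3 libraries of each population it had 86393 reads in MG, 1 read in KCs and 4 reads each in PMs and AMs. The ratio of MG to KCs was 73962, with an exact counting interval of 13275 to 2921330. Its paralog Sall3 was at 168, 181 and 189.9 CPM in MG with no read in KCs or AMs, at least 2007-fold and 2058-fold higher, and with 1 read in PMs.

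Siglech, a receptor of the sialic acid-binding lectin family that is used as a marker of MG and of plasmacytoid dendritic cells, was at 2031, 1917 and 1972 CPM in MG, at least 22062-fold above KCs, where it had no read. PMs had up to 0.146 CPM of Siglech, and AM replicate 2 held 0.845 CPM. Tgfa, a ligand of the epidermal growth factor receptor, was at 190.1, 174 and 172 CPM in MG and was at least 1998-fold higher than in KCs and 2048-fold higher than in AMs, which both had no read, while PMs had 3 reads. Slc2a5, which carries fructose across the membrane, was at 1054, 1079 and 1015 CPM in MG, without a read in KCs (at least 11736-fold higher) and at 0.767, 0.0298 and 1.04 CPM in PMs (log2 difference 10.74 ± 0.73 (SE), adjusted p = 2.03e-06). For each of these genes the other 9 libraries held at most 1.04 CPM, far below every MG library.

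Promoter sequence was taken from RefSeq (GRCm38.p6) for the genes at the head of this ranking and for P2ry12 and Cx3cr1, and the last of these was added after its values and sequence were seen. Upk1b and Sall3 are named only. Each run shows the 250 bases before the transcription start in the table, 5′ to 3′ on the strand of the gene. Capitals mark a match on either strand to the SMAD motif CAGACA or to the letters searched for MEF2. The MEF2 letters are CTA and TAG with any 4 bases between them. Since those 4 bases were left free, a match need not be a MEF2 consensus site. SMAD proteins carry the TGF-beta signal to the nucleus, and MEF2 factors bind enhancers of MG.
Sall1 (chr8:89044163-89044412, minus strand): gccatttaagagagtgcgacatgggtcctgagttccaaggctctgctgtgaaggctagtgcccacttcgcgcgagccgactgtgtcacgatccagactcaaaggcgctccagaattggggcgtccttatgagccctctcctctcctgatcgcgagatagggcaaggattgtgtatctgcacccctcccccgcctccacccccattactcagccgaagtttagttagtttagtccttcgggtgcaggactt
Siglech (chr7:55767934-55768183, plus strand): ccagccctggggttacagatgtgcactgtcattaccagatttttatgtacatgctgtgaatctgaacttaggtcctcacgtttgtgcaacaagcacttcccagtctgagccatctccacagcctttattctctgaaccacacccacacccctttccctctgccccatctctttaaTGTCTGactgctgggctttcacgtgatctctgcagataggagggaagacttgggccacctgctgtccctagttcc
Tgfa (chr6:86194972-86195221, plus strand): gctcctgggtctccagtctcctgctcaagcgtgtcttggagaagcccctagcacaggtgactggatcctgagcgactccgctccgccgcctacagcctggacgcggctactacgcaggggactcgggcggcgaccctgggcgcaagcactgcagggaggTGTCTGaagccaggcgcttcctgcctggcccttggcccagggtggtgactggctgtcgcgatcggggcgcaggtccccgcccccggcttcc
P2ry12 (chr3:59262986-59263235, minus strand): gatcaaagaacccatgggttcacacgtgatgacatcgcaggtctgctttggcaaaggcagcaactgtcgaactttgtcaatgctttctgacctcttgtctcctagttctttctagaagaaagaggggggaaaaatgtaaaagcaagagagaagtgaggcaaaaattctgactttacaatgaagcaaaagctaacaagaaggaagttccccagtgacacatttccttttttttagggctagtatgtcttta
Cx3cr1 (chr9:120068297-120068546, minus strand): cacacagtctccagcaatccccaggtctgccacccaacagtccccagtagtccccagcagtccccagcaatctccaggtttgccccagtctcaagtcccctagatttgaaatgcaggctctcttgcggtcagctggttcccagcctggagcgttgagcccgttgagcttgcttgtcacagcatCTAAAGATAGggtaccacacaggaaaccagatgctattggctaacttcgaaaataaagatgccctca

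The windows of Siglech and Tgfa each hold the SMAD letters, at 75 to 70 and 91 to 86 bases before the start. The window of Cx3cr1 holds the MEF2 letters at 67 to 58 bases before the start. Cx3cr1 was picked because its window holds these letters, so its match was fixed by that choice. The windows of Sall1 and P2ry12 hold neither the SMAD nor the MEF2 letters. The table's start differed from the start of the annotated gene by 114 bases for P2ry12 and by 1583 bases for Cx3cr1. Over all 10925 tested genes with an entry, 13.4% of the windows held the SMAD letters, against 15.9% of 483 higher genes and 14.2% of 626 lower genes. The MEF2 letters were in 2.62% of all windows, in 4.35% (21) of the higher genes and in 0.799% (5) of the lower genes. The PU.1 motif GAGGAAGT was in 2.76% of all windows, 2.69% of the higher and 4.63% of the lower genes, and the AP-1 motif TGANTCA was in 4.40%, 3.52% and 5.43%. These shares were not tested. The motif positions do not overlap each other in the printed windows, and a match describes letters, not a bound site.

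**Figure D2:**
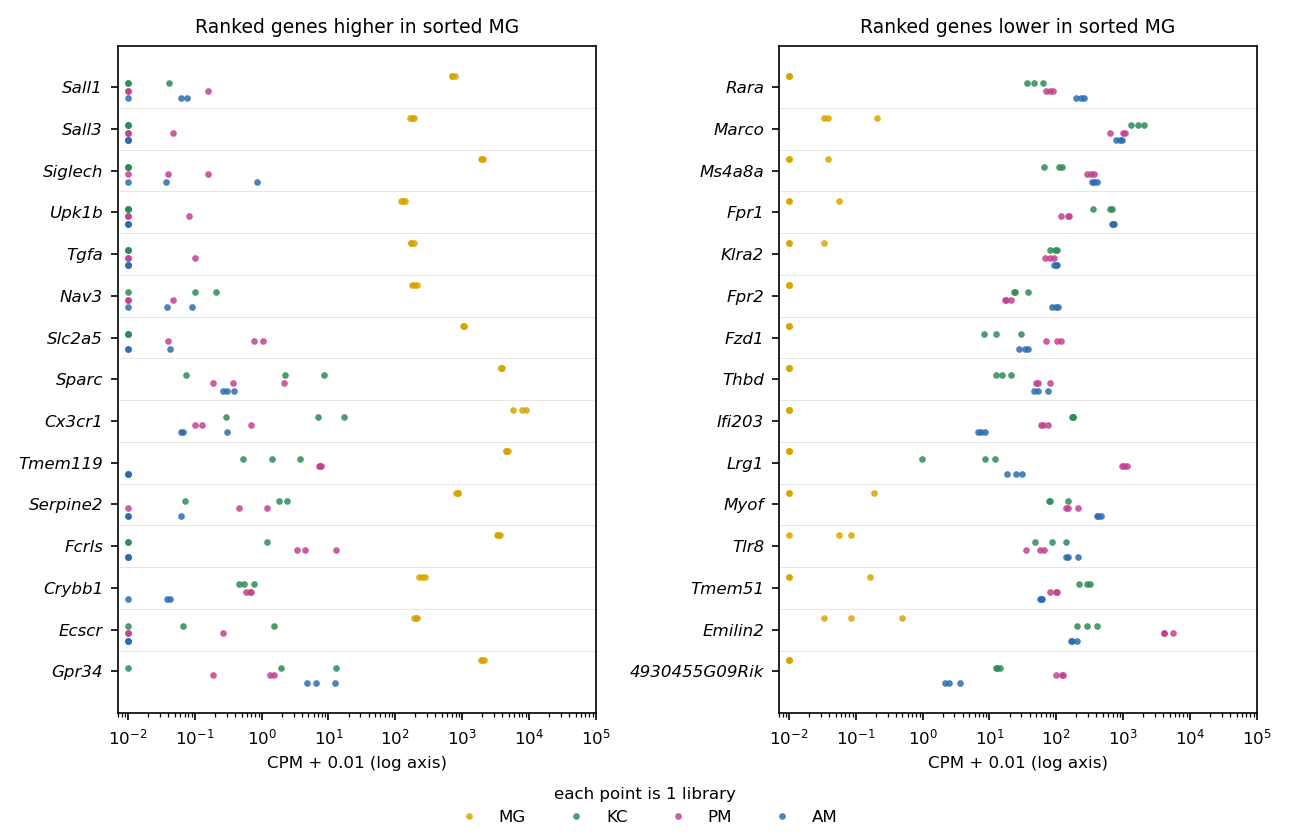
CPM per library (log axis, 0.01 added so that a library without a read is shown) for the 15 genes that stood farthest above (left) and farthest below (right) the nearest other tissue in sorted MG, with 1 point per library and 3 libraries for each of MG, KCs, PMs and AMs. In the left panel every MG point lies above 100 CPM and every other point below 20 CPM, and in the right panel every MG point lies below 0.5 CPM.

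Genes of the homeostatic MG program, by which MG of the healthy brain are usually recognized, were compared as a list. Counts of this list and of the later ones are to be read beside the shares of all genes tested, 4.49% higher and 5.56% lower. Of 26 genes in this list 22 were higher than in each other tissue and none was lower. The median log2 difference was 6.99 against KCs, 9.03 against PMs and 8.09 against AMs. The genes of this list are known for their high level in MG, so its count is not independent evidence of a direction. Csf1r, Ltc4s and Mef2a were among the 4 that were not called. Csf1r, the receptor for CSF1 and IL-34, was at 15292, 15058 and 13756 CPM in MG and at 4605, 7575 and 10872 CPM in KCs, a log2 difference of 0.94 ± 0.27 (SE) that stayed under the threshold of 1.5. Ltc4s, the synthase of leukotriene C4, was called higher in MG than in KCs (log2 difference 2.48 ± 0.12) but lower than in PMs (-1.56 ± 0.12), which held 411, 424 and 436 CPM against 139, 150.2 and 141 CPM in MG.

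Among the surface receptors of the list, Cx3cr1, the receptor for neuronal fractalkine, was at 7908, 8945 and 5870 CPM in MG, at 6.93, 17.0 and 0.282 CPM in KCs, and under 1 CPM in PMs and AMs. Tmem119, a membrane protein used to tell MG from other brain macrophages, was at 4539, 4889 and 4485 CPM in MG, at 0.510, 3.68 and 1.41 CPM in KCs and at 7.20, 7.51 and 7.81 CPM in PMs. AMs had no Tmem119 read, which makes MG at least 53161-fold higher. Fcrls, an Fc receptor-like gene, was at 3652, 3498 and 3286 CPM in MG and at 3.36, 4.47 and 12.97 CPM in PMs, with reads in KC replicate 2 alone among KCs and no read in AMs. Gpr34, a receptor for lysophosphatidylserine, was at 1951, 2101 and 1982 CPM in MG, against 12.8 CPM in the highest other library. Both Cx3cr1 and Gpr34 varied widely among the KC libraries, and Gpr34 had no read in KC replicate 3, while all MG libraries lay far above every other library.

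The difference was smaller for receptors that other macrophages share. Trem2, a lipid receptor of phagocytes, was at 1197, 1248 and 1234 CPM in MG and between 31.01 and 91.2 CPM in the other libraries, with log2 differences of 4.81 ± 0.23, 4.01 ± 0.22 and 4.71 ± 0.23 (SE) from KCs, PMs and AMs. Cd33 was at 461, 464 and 403 CPM in MG and at 131, 161 and 157 CPM in AMs, the closest tissue, with a log2 difference of 1.57 ± 0.27 just past the threshold. Selplg, the ligand of the selectins, was at 6101, 6459 and 5790 CPM in MG and at 1637, 1763 and 1532 CPM in PMs. The adhesion receptor gene Adgrg1 was at 1499, 1426 and 1345 CPM in MG, under 1 CPM in KCs and PMs, and at 45.1, 41.5 and 37.0 CPM in AMs. Slco2b1, an organic anion transporter, followed the same order, with 2172, 2028 and 2032 CPM in MG and 214, 266 and 233 CPM in AMs, but lost its call with all 24 libraries in 1 model.

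Among the secreted and lysosomal members, Olfml3, an extracellular matrix protein, was at 3084, 3207 and 2862 CPM in MG and at most 15.03 CPM in any other library. Sparc, a matrix protein released at synapses, was at 3884, 3927 and 3838 CPM in MG and at most 8.49 CPM elsewhere. Cst3, a secreted inhibitor of cathepsins, was at 18462, 19142 and 18362 CPM in MG. KC replicate 1, at 6276 CPM, was the nearest other library, and the other KC libraries held 1191 and 1237 CPM. Counted per kilobase of exon, genes with high levels in MG were Cst3 (14735 CPM per kb), Ctsd (7302), C1qb (5365), Ctss (3818), C1qa (3446), C1qc (2639), Csf1r (2546), Tmsb4x (2454) and P2ry12 (2286 CPM per kb), of which only Cst3 and P2ry12 were called higher than in each other tissue.

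**Figure D3:**
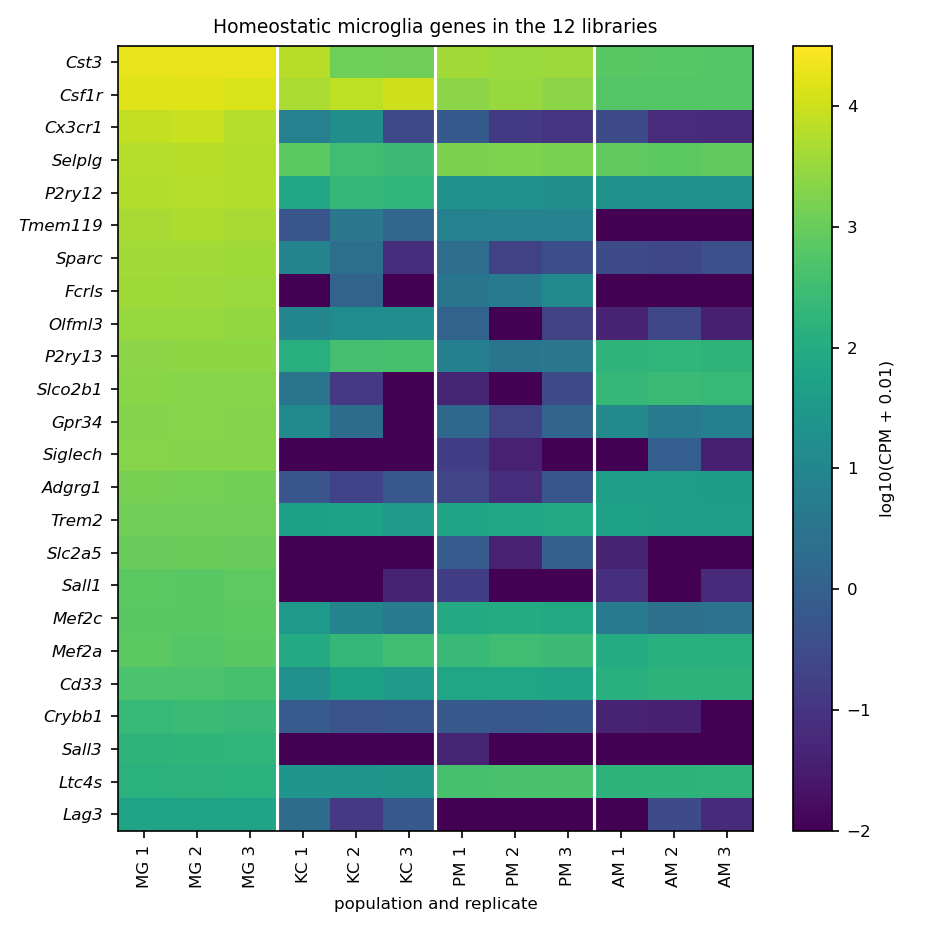
Expression per library (colour, log10 of CPM with 0.01 added) of 24 of the 26 genes listed as homeostatic MG genes in sorted MG, KCs, PMs and AMs, as a heat map with 1 row per gene and 1 column per library. The MG columns are the brightest in nearly every row, and Ltc4s is an exception, with PMs (411 to 436 CPM) above MG (139 to 150.2 CPM).

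The 43 lysosomal hydrolase genes as a whole stayed near the background, with 2 called higher (among them the sulfatase Arsb), 1 called lower (Gla) and medians of -0.16, 0.01 and -0.01. Gla lost its call without KC replicate 2, where its log2 difference from the nearest tissue was -1.498. Arsb was at 309, 265 and 225 CPM in MG and at most 51.0 CPM in any other library.

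**Figure D4:**
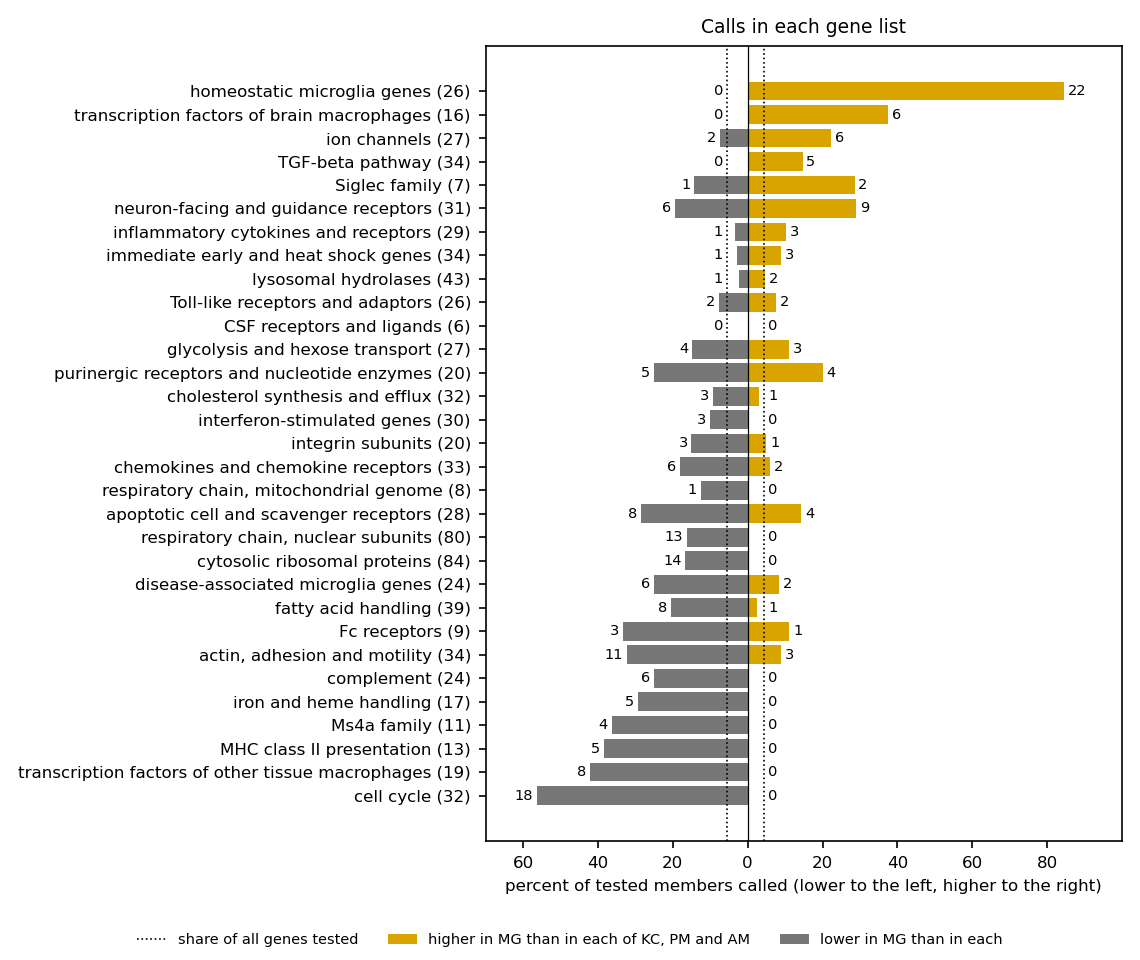
Percentage of the tested members of each of 31 gene lists (number tested in brackets) called higher (right) or lower (left) in sorted MG than in each of KCs, PMs and AMs, with the numbers called beside the bars and dotted lines at the shares of all genes, 4.49% and 5.56%. The homeostatic list (22 of 26 higher) and the cell cycle list (18 of 32 lower) are the longest bars.

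Of the transcription factors of brain macrophages, 6 of 16 were higher than in each other tissue (Sall1, Sall3, Mef2c, Jun, Egr1 and Etv5) and none was lower. The list was drawn up for factors of MG, and Sall1, Sall3 and Mef2c are also in the homeostatic list. Its count is therefore not independent evidence of a direction. Mef2c was at 701, 668 and 708 CPM in MG, at 30.4, 7.85 and 4.95 CPM in KCs, at 92.6, 98.8 and 88.3 CPM in PMs and at 4.56, 2.51 and 2.89 CPM in AMs. Its relative Mef2a was at 717, 618 and 686 CPM in MG and was called against KCs (log2 difference 1.71 ± 0.33) and AMs (2.59 ± 0.34), but not against PMs (1.25 ± 0.32). Smad3, a transducer of TGF-beta, was at 134, 153 and 149 CPM in MG and was called against KCs (3.32 ± 0.58) and AMs (7.58 ± 0.73), but not against PMs (0.94 ± 0.53). Spi1, which encodes PU.1, and Irf8, factors of all these lineages, were not higher in MG than in each tissue: Spi1 was at 382, 427 and 414 CPM in MG and at 389.5 to 882 CPM elsewhere, and Irf8, at 709, 794 and 807 CPM in MG, reached 1479 CPM in KC replicate 1. Jun and Egr1 are also immediate early genes. Jun was at 2567, 2224 and 2744 CPM in MG and at most 249.7 CPM elsewhere, whereas Egr1 was at 561, 199 and 442 CPM in MG and reached 121 CPM in AMs.

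Of 19 tested factors that set up the other tissue macrophages, 8 were lower in MG than in each other tissue and none was higher. These factors were listed for their part in the other tissues, so this count is not independent evidence of a direction either. Pparg, which drives lipid handling in AMs, had no read in MG and was at least 419-fold lower than in KCs, 14.4-fold lower than in PMs and 4915-fold lower than in AMs. Nr1h3, which encodes the oxysterol receptor LXR-alpha, was at 1.85, 1.86 and 1.41 CPM in MG, at 596, 747 and 720.2 CPM in KCs, at 6.14, 4.86 and 6.83 CPM in PMs and at 102, 97.3 and 84.3 CPM in AMs. Id1 and Id3, targets of bone morphogenetic proteins, were at most 0.464 and 0.719 CPM in MG, against at least 9.81 and 4.503 CPM in every other library. Bhlhe40 was at 0.371, 0.545 and 0.226 CPM in MG and between 53.2 and 714 CPM elsewhere. Cebpb, a driver of macrophage activation genes, was detected throughout, at 96.9, 105 and 93.5 CPM in MG and between 379 and 2223 CPM elsewhere. The other 2 were Tfec and Nfe2, and the call of Nfe2 ended without MG replicate 1 or 2, with a log2 difference from the nearest tissue of -3.46 to -3.20. Gata6, the factor of peritoneal macrophages, had no read in MG and 160.0, 161 and 154 CPM in PMs, but was also near zero in KCs and AMs.

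None of the 6 tested genes for receptors and ligands of colony-stimulating factors was called in all 3 contrasts. In the TGF-beta pathway, 5 of 34 genes were higher than in each other tissue (Itgb5, Tgfbr1, Acvr1, Smad7 and Pmepa1) and none was lower, with medians of 1.04, 0.80 and 1.12 (1.08 from AMs with genes without a read at their bound). Among the ligands and their activators, Tgfb1 was at 248, 264 and 249 CPM in MG with no contrast called, and Nrros, which holds latent TGF-beta on the surface of MG, was at 393, 419 and 432 CPM with log2 differences between -0.33 and 0.31. Itgb5, an integrin subunit that can bind latent TGF-beta, was at 2879, 2956 and 2784 CPM in MG, at 487, 864 and 973 CPM in KCs, at 5.96, 5.78 and 3.94 CPM in PMs and at 360.4, 408 and 394 CPM in AMs. Among the receptors, Tgfbr1 was at 2193, 1845 and 1997 CPM in MG, at 45.4, 153 and 158 CPM in KCs, at 41.5, 70.2 and 48.1 CPM in PMs and at 347, 392 and 444 CPM in AMs, with log2 differences of 4.08 ± 0.42, 5.24 ± 0.45 and 2.35 ± 0.39 (SE). Its partner Tgfbr2, at 1088, 958 and 945 CPM in MG, was called against KCs (1.89 ± 0.28) and PMs (1.62 ± 0.28) and not against AMs (0.58 ± 0.27). Both inhibitors that were called, Smad7 (107, 115 and 103 CPM in MG, at most 39.5 CPM elsewhere) and Pmepa1 (390.3, 455 and 452 CPM in MG, at most 98.0 CPM elsewhere), are induced by the pathway itself. The call of Pmepa1 ended when any single MG, PM or AM library was left out, at log2 differences of 2.28 to 2.44 from the nearest tissue and adjusted p values of 0.0540 to 0.0983.

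Of 20 purinergic receptors and nucleotide enzymes tested, 4 were higher than in each other tissue (P2ry12, P2ry13, Adora1 and Adora3) and 5 were lower (P2ry2, P2ry14, Adora2a, Adora2b and Nt5e). For P2ry12, which lies at 3:59216272-59262871 (minus strand, mm10), the log2 differences were 5.19 ± 0.38, 8.28 ± 0.44 and 8.19 ± 0.44 (SE) from KCs, PMs and AMs (adjusted p of 9.44e-07, 5.43e-08 and 4.50e-08). P2ry13, a related receptor for ADP, was at 2327, 2454 and 2555 CPM in MG, at 119.9, 391 and 417 CPM in KCs, at 6.36, 3.40 and 3.67 CPM in PMs and at 172, 191 and 171 CPM in AMs. Adora3 was at 63.1, 63.9 and 63.7 CPM in MG and at most 8.79 CPM elsewhere, whereas Adora1 was low even in MG, at 0.649, 1.06 and 1.21 CPM. P2ry6, the UDP receptor linked to phagocytosis, was at 333, 324 and 333 CPM in MG and was called against PMs and AMs (4.71 ± 0.27 and 1.61 ± 0.23) but not against KCs (0.81 ± 0.23).

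On the lower side, P2ry14, a receptor for UDP-sugars, was at 0.139, 0.115 and 0.277 CPM in MG and between 22.3 and 181 CPM in the other libraries. P2ry2, the receptor for ATP and UTP, was at 1.30, 0.831 and 1.11 CPM in MG and between 3.32 and 97.1 CPM elsewhere. The adenosine receptor genes Adora2a and Adora2b were at most 0.503 CPM in MG, and the call of Adora2b ended when each contrast was fitted on its own 6 libraries. Nt5e, which encodes CD73, the enzyme that makes adenosine from AMP, had 2 reads in MG and was at 103, 157 and 117 CPM in PMs (a ratio to MG of 7488, with an exact counting interval of 2073 to 61833) and at 43.3, 57.6 and 52.3 CPM in AMs (a ratio of 3029, interval 839 to 25015). Entpd1, which encodes CD39, the enzyme one step earlier, was in contrast at 796, 867 and 723 CPM in MG, called against PMs (2.43 ± 0.22) and AMs (3.14 ± 0.23) and not against KCs (1.09 ± 0.21). The call of Nt5e ended under limma-voom, and that of Adora2a without any 1 of the MG libraries or AM replicate 2, with log2 differences of -6.02 to -2.36 from the nearest tissue.

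**Figure D5:**
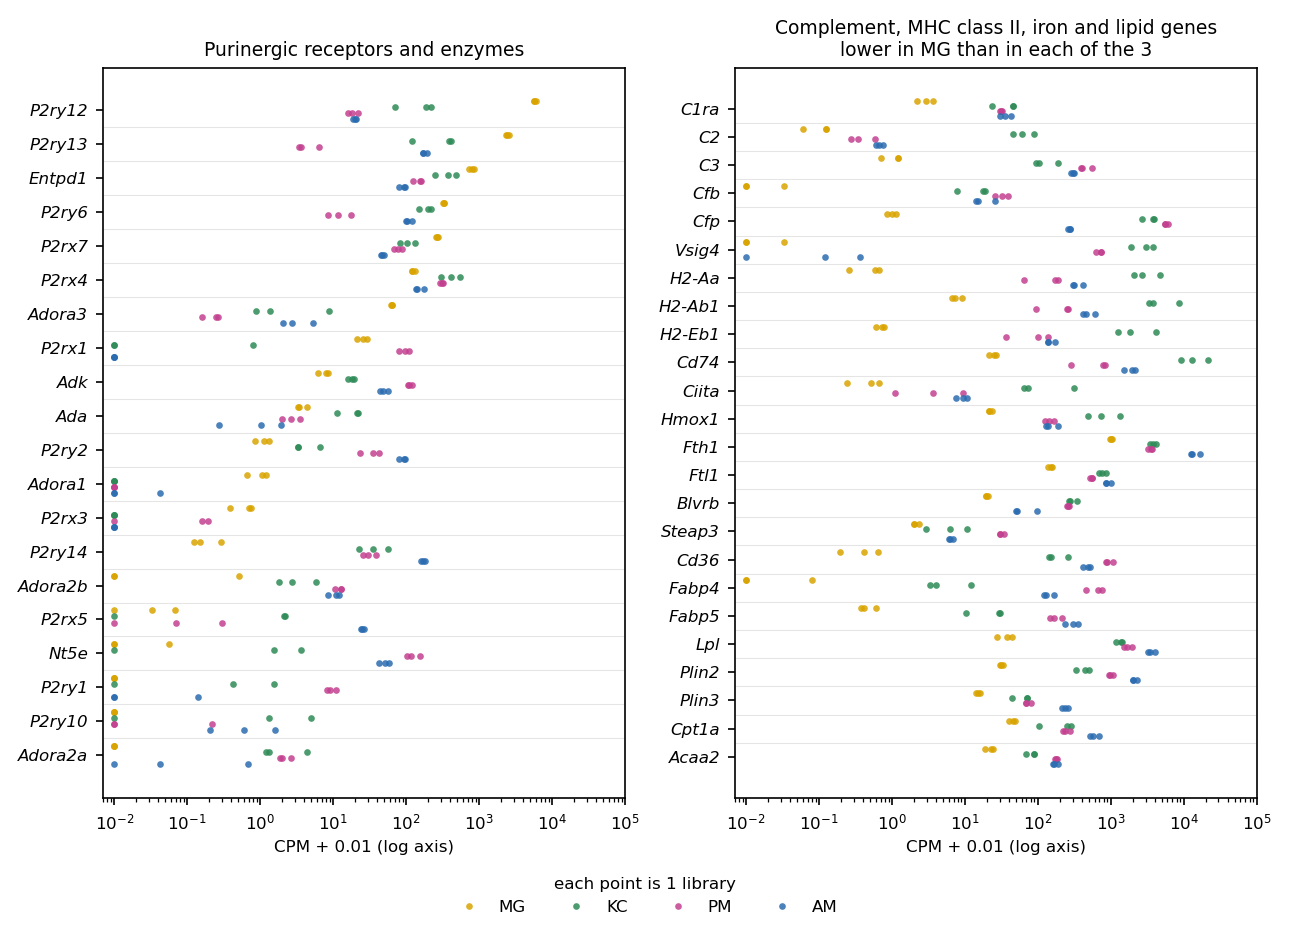
CPM per library (log axis, 0.01 added) of purinergic genes and of further genes lower in sorted MG, with 1 point per library for MG, KCs, PMs and AMs. P2ry12 is at 5672 to 6033 CPM in MG and P2ry14 at 0.115 to 0.277 CPM, on opposite sides of the other libraries.

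Of 27 ion channel genes, 6 were higher (Kcnk6, Kcnk12, Kcnj2, Kcnma1, Kcnd1 and Cacna1d, the last not with all 24 libraries in 1 model) and 2 were lower (Kcnab2 and Clic4). Of the 12 potassium channel genes tested, 5 were higher and 1 was lower. Kcnk6, a two-pore potassium channel of resting cells, was at 396, 373 and 327 CPM in MG, at 91.8, 119 and 138 CPM in KCs and at most 47.0 CPM in PMs and AMs. Kcnk13, its relative that sets the resting potential of MG, was at 144, 136 and 146 CPM in MG but at 128, 131 and 104 CPM in PMs, and was called against AMs only (8.43 ± 0.42). Kcnd1 was at 97.5, 95.2 and 109 CPM in MG and at most 4.44 CPM elsewhere, and Kcnk12 at 40.5, 45.1 and 33.6 CPM against at most 0.3598 CPM. Kcnj2, an inward rectifier, was at 35.5, 54.8 and 66.3 CPM in MG, above the 1.51 to 8.74 CPM of the other libraries. Clic4, an intracellular chloride channel protein, was at 20.98, 18.8 and 25.2 CPM in MG and between 83.7 and 1084 CPM elsewhere.

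Receptors and ligands by which MG face neurons and guidance cues were called in both directions, with 9 of 31 higher and 6 lower, and the calls of Gabbr1 and Plxna4 ended with all 24 libraries in 1 model. Gabbr1, a subunit of the GABA-B receptor, was at 39.3, 41.8 and 37.1 CPM in MG and between 2.15 and 12.7 CPM in the other libraries. Grm3, a metabotropic glutamate receptor, was low in MG, at 3.55, 3.47 and 2.09 CPM, with no read in KCs or PMs (at least 33.9-fold and 31.5-fold higher) and 3 reads in AMs. Plexins, the receptors of semaphorins, divided: Plxna4 was higher, at 130.1, 132 and 118 CPM against at most 44.4 CPM, and Plxna1, Plxnc1 and Plxnd1 were lower. Plxna1 was at 8.00, 6.45 and 5.99 CPM in MG and between 25.7 and 124 CPM elsewhere. Sema4d, a semaphorin that binds plexins, was at 577, 572 and 506 CPM in MG, at 48.5, 19.97 and 10.5 CPM in KCs and at most 23.98 CPM in PMs and AMs. Pdgfb, a growth factor for pericytes, was at 145, 167 and 138 CPM in MG, at 47.2, 22.4 and 26.7 CPM in KCs and at most 2.65 CPM in PMs and AMs.

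Igf1, a growth factor that MG make during development, was by contrast at 1.09, 0.545 and 1.28 CPM in MG, at 433, 635 and 675 CPM in KCs, at 241, 225 and 226 CPM in PMs and at 31.8, 27.3 and 30.03 CPM in AMs, with log2 differences of -9.21 ± 0.33, -7.87 ± 0.32 and -4.92 ± 0.28 (SE). The call of Sema4a ended when any 1 of 10 of the 12 libraries was left out (log2 difference from the nearest tissue -2.24 to -0.69), and that of Plxnc1 without MG replicate 1 or 2 or KC replicate 1 (-3.51 to -0.99). KC replicate 1 held 262 CPM of Sema4a and 41.5 CPM of Plxnc1 against at most 25.9 and 2.95 CPM in the other KC libraries.

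The 15 genes that stood farthest below the nearest tissue were Rara, Marco, Ms4a8a, Fpr1, Klra2, Fpr2, Fzd1, Thbd, Ifi203, Lrg1, Myof, Tlr8, Tmem51, Emilin2 and the non-coding 4930455G09Rik. They include receptors for bacterial products (Marco, Fpr1, Fpr2 and Tlr8), a receptor for retinoic acid (Rara) and a receptor for Wnt ligands (Fzd1). Rara had no read in the 3 MG libraries and was at 63.1, 35.9 and 46.7 CPM in KCs, at 71.0, 81.6 and 88.6 CPM in PMs and at 199, 236 and 264 CPM in AMs, so that MG were at least 631-fold, 1044-fold and 3025-fold lower. Marco, a scavenger receptor for bacteria and particles, had 10 reads in MG, at most 0.201 CPM per library, and was at 1676, 1304 and 2038 CPM in KCs, at 638, 1076 and 993 CPM in PMs and at 783, 899.6 and 951 CPM in AMs. Its log2 differences were -14.21 ± 0.56, -13.32 ± 0.55 and -13.28 ± 0.55 (SE).

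Fpr1, a receptor for formylated bacterial peptides, had 2 reads in MG, against 352, 644 and 695 CPM in KCs, 117, 157 and 148 CPM in PMs and 723, 711 and 686 CPM in AMs. Its relative Fpr2 had no read in MG and was at least 371-fold lower than in KCs, 239-fold lower than in PMs and 1263-fold lower than in AMs. Reads of such related genes can be shared, but both were near or at zero in MG. Thbd, the thrombin receptor thrombomodulin, had no read in MG and was between 12.6 and 80.2 CPM elsewhere. Emilin2, a matrix glycoprotein, was at 0.0232, 0.487 and 0.0755 CPM in MG, at 202, 285 and 404 CPM in KCs, at 4076, 5691 and 4101 CPM in PMs and at 165, 203 and 174 CPM in AMs. Tlr8 was at most 0.0755 CPM in MG and between 35.4 and 215 CPM elsewhere. Every MG library lay below every other library for these genes, which was a condition of the ranking.

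Of the genes for uptake of dying cells and of other ligands, 4 of 28 were higher (Stab1, Trem2, Itgb5 and Gas6) and 8 were lower (Axl, Cd300lb, Msr1, Marco, Cd36, Mrc1, Olr1 and Colec12). Of 12 scavenger receptors, 6 were lower and none was higher, and of 12 receptors for apoptotic cells, 3 were higher and 2 lower, a difference that was not tested. The call of Stab1 ended with all 24 libraries in 1 model. Cd36, a receptor for lipids, was at 0.185, 0.631 and 0.402 CPM in MG and between 143 and 1078 CPM elsewhere. Msr1 was at 1.69, 2.06 and 2.04 CPM in MG and between 21.9 and 1715 CPM elsewhere. Of the TAM kinases, which bind apoptotic cells through Gas6 and Pros1, Axl was at 19.4, 11.4 and 17.3 CPM in MG, at 953, 2518 and 2690 CPM in KCs, at 40.9, 67.0 and 38.8 CPM in PMs and at 2803, 2948 and 3036 CPM in AMs. Mertk, in contrast, was at 1003, 847 and 881 CPM in MG and at 255, 625 and 899 CPM in KCs, and was called against PMs only. The ligand Gas6 was at 245, 253 and 271 CPM in MG, at 35.7, 36.4 and 14.4 CPM in KCs, at 4.09, 10.1 and 6.74 CPM in PMs and without a read in AMs. Without 1 library, the calls of Axl (MG or PM replicate 2), Mrc1 (PM replicate 2) and Olr1 (MG replicate 2 or KC replicate 1) ended, at log2 differences from the nearest tissue of -1.40 to -1.31, -1.45 and -1.45 to -1.35.

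None of 24 complement genes was higher than in each other tissue, and 6 were lower (C1ra, C2, C3, Cfb, Cfp and Vsig4). Without MG replicate 3 or AM replicate 2, 1 gene of the list was called higher, and the call of C2 ended under limma-voom and with all 24 libraries in 1 model. The C1q genes, whose products tag synapses and debris, were called against AMs only. C1qa was at 3414, 3887 and 3451 CPM in MG, at 2892, 2774 and 3733 CPM in KCs and at 4218, 4101 and 3872 CPM in PMs, with at most 0.390 CPM in AMs. C1qb and C1qc had log2 differences of -0.29 ± 0.26 and -0.23 ± 0.24 from KCs and -0.39 ± 0.26 and -0.34 ± 0.24 from PMs. Among the downstream components, C3 was at 0.695, 1.20 and 1.21 CPM in MG, at 189.8, 94.9 and 103 CPM in KCs, at 386, 557 and 409 CPM in PMs and at 282, 306 and 314 CPM in AMs. Cfp, which encodes properdin, the stabilizer of the alternative pathway, was at 0.835, 1.15 and 0.981 CPM in MG and between 256 and 6012 CPM elsewhere, and Cfb had 1 read in MG. Vsig4, a complement receptor, was at 1 read in MG but also near zero in AMs, and its call ended without any of 9 single libraries (log2 difference from the nearest tissue -5.33 to -2.21).

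Of 13 genes of MHC class II presentation, 5 were lower than in each other tissue (H2-Aa, H2-Ab1, H2-Eb1, Cd74 and Ciita) and none was higher. H2-Aa was at 0.580, 0.659 and 0.252 CPM in MG, at 4775, 2106 and 2675 CPM in KCs, at 64.6, 174 and 189.6 CPM in PMs and at 420.4, 311 and 302 CPM in AMs. Cd74, the invariant chain, was at 24.8, 21.4 and 27.0 CPM in MG, at 21712, 9127 and 13039 CPM in KCs, at 287, 791 and 823 CPM in PMs and at 2126, 1542 and 1956 CPM in AMs. Ciita, which switches the class II genes on, was at 0.510, 0.229 and 0.654 CPM in MG and at 1.10, 9.30 and 3.64 CPM in PMs. The co-stimulator Cd86 did not share this pattern, at 312, 317 and 367 CPM in MG, 292, 439 and 293 CPM in KCs and 10.5, 14.7 and 15.2 CPM in AMs. Without KC replicate 1, in which these class II genes were highest, the count of lower genes was also 5, and 1 member of the list was then called higher. The call of Ciita ended under limma-voom.

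Of 39 fatty acid genes, 8 were lower in MG than in each other tissue, 1 was higher (Gpam) and 30 were neither. The lower genes were 4 of 13 for uptake and binding, 2 of 10 for storage and 2 of 16 for oxidation. Fabp4, a fatty acid carrier, had 3 reads in MG, with ratios to MG of 264 in KCs (exact counting interval 90.5 to 1282), 24581 in PMs (8411 to 119195) and 5415 in AMs (1853 to 26257). Lpl, which frees fatty acids from lipoproteins, was at 38.2, 27.3 and 44.3 CPM in MG and between 1164 and 4097 CPM elsewhere. Plin2, the coat protein of lipid droplets, was at 31.4, 32.9 and 30.6 CPM in MG, at 334, 503 and 439 CPM in KCs, at 1071, 990.4 and 961 CPM in PMs and at 2009, 2321 and 2040 CPM in AMs. Cpt1a, the gate of mitochondrial fatty acid oxidation, was at 40.2, 46.2 and 49.5 CPM in MG, and the lowest other library, KC replicate 1, held 104 CPM. The median log2 difference of the list was -0.48 from KCs, -0.44 from PMs and -1.75 from AMs.

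In cholesterol synthesis and efflux, 1 of 32 genes was higher (Mylip, a ubiquitin ligase) and 3 were lower (among them Apoc1 and Nr1h3). For comparison, 4.49% of all genes tested were higher and 5.56% were lower. Mylip was at 330.4, 363 and 335 CPM in MG and at most 130.0 CPM elsewhere. Apoe, the main lipoprotein of the brain, was at 216, 175 and 253 CPM in MG, at 17635, 21269 and 21404 CPM in KCs, at 52748, 57471 and 58748 CPM in PMs and at 116, 80.2 and 115 CPM in AMs. MG were thus lower than KCs and PMs (log2 differences of -6.55 ± 0.27 and -8.04 ± 0.29) while the difference from AMs was 1.05 ± 0.21, under the threshold. Its neighbour Apoc1 was at most 0.101 CPM in MG and at least 9.55 CPM elsewhere.

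Iron and heme genes were lower for 5 of 17 members (Hmox1, Fth1, Ftl1, Blvrb and Steap3), with none higher. Fth1, the heavy chain of ferritin, was at 1006, 1041 and 992 CPM in MG and between 3207 and 16553 CPM elsewhere. Hmox1, which opens the heme ring, was at 21.4, 21.4 and 23.6 CPM in MG, at 482, 736 and 1329 CPM in KCs, and between 124 and 191 CPM in PMs and AMs. Ftl1 was at 153, 136 and 157 CPM in MG and between 518 and 1018 CPM elsewhere. The calls of Blvrb (without AM replicate 1, -1.27) and Steap3 (without MG replicate 1 or 3, KC replicate 3 or AM replicate 3, -1.498 to -1.11) ended when a library was left out.

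Of 27 genes of glycolysis and hexose transport, 3 were higher (Slc2a5, Pfkfb3 and Ldhb) and 4 were lower (Slc2a6, Gpi1, Pfkp and Aldoc). Shares of all genes tested were 4.49% higher and 5.56% lower. Ldhb, the lactate dehydrogenase subunit of oxidative tissues, was at 299, 311 and 326 CPM in MG, at 6.48, 2.03 and 2.51 CPM in KCs, at 40.3, 34.5 and 37.8 CPM in PMs and at 0.325, 0.113 and 0.0531 CPM in AMs. Pfkfb3, which makes the activator of phosphofructokinase, was at 119, 120.4 and 154 CPM in MG and at most 53.1 CPM elsewhere. Pfkp, a phosphofructokinase isoform, was at 1.85, 0.774 and 3.27 CPM in MG and between 75.9 and 465 CPM elsewhere. The call of Gpi1 ended without KC replicate 1 (log2 difference from the nearest tissue -1.25), and that of Aldoc without MG replicate 1 or PM replicate 3 (-1.72 to -1.505).

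Of 29 cytokine and receptor genes, 3 receptors were higher (Il6st, Tnfrsf17 and Il21r) and the antagonist Il1rn was lower. Over all genes tested, the shares were 4.49% higher and 5.56% lower. Il6st, the gp130 chain shared by the IL-6 family, was at 591, 506 and 608 CPM in MG and at most 186 CPM elsewhere, and Il21r was at 221, 243 and 232 CPM in MG and at most 18.4 CPM elsewhere. Il1rn was at 1.09, 0.602 and 0.880 CPM in MG, at 53.2, 76.7 and 77.7 CPM in KCs, at 3.07, 5.25 and 4.15 CPM in PMs and at 412, 422 and 391 CPM in AMs. Il1b was low in MG, at 2.25, 2.15 and 2.94 CPM, under KCs and AMs (log2 differences of -6.22 ± 0.28 and -5.26 ± 0.27) but above PMs (2.04 ± 0.28). Tnf was at 3.99, 5.56 and 8.02 CPM in MG and was called against AMs only (-2.85 ± 0.36).

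Of 33 chemokine and chemokine receptor genes, 2 were higher (Ccl12 and Cx3cr1) and 6 were lower (Ccl6, Cxcl1, Cxcl2, Cxcl14, Pf4 and Cxcr4). Across all genes tested, 4.49% were higher and 5.56% were lower. Ccl12 was at 56.7, 47.2 and 56.9 CPM in MG and at most 2.33 CPM elsewhere. Ccl6 was at 137, 139 and 149 CPM in MG, at 817, 1673 and 1000 CPM in KCs, at 2670, 3297 and 3209 CPM in PMs and at 9344, 8807 and 8516 CPM in AMs. Cxcl2, which draws neutrophils, was at most 0.0860 CPM in MG and between 4.98 and 112 CPM elsewhere. Cxcl1 was at most 0.139 CPM in MG, and its call ended without MG replicate 2 or 3 (-5.07 to -5.02). Ccl3 and Ccl4 were called against PMs and, for Ccl4, AMs, with 51.3, 48.5 and 89.6 CPM and 34.3, 25.3 and 39.4 CPM in MG.

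Among 26 Toll-like receptor and adaptor genes, 2 were higher (Tlr3 and Tlr9) and 2 were lower (Tlr8 and Irak3). All genes tested gave 4.49% higher and 5.56% lower. Tlr3, a sensor of double-stranded RNA, was at 147, 124 and 119.6 CPM in MG and at 54.6, 36.6 and 45.4 CPM in KCs. Its difference from KCs (1.52 ± 0.31) was at the threshold, and the call ended without MG replicate 1 or KC replicate 2 (1.45 to 1.495), while that of Tlr9 ended without any of 7 single libraries (2.37 to 3.11). No library change reversed either gene. Irak3, an inhibitor of Toll-like receptor signalling, was at 7.02, 6.85 and 6.94 CPM in MG and between 34.4 and 84.5 CPM elsewhere. Of 30 interferon-stimulated genes none was higher and 3 were lower (Ifitm2, Oas3, whose call ended under limma-voom, and Zbp1, whose call ended with all 24 libraries in 1 model). In the contrast with KCs, 24 of the 30 were lower in MG, while 14.5% of all genes tested were lower. The median log2 difference of the list was -3.32 from KCs, -0.83 from PMs and 0.37 from AMs.

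Of 7 Siglec genes tested, Siglech and Cd33 were higher and Siglec1 was lower, at 5.08, 2.29 and 2.16 CPM in MG and between 62.5 and 1146 CPM elsewhere. Of 9 Fc receptor genes Fcrls was higher, and Fcgr4, Fcgrt and Fcrla were lower. Fcgr4, an activating receptor for immunoglobulin G, was at 12.1, 13.6 and 15.1 CPM in MG and between 84.1 and 389 CPM elsewhere, and Fcgrt, the neonatal Fc receptor, was at 136, 139 and 136 CPM in MG and between 501 and 809.7 CPM elsewhere. The call of Fcrla, which was near zero throughout, ended without any of 9 single libraries (-2.93 to -1.99). Of 20 integrin subunits, Itgb5 was higher and Itga4, Itgal and Itgb7 were lower. Itga4, through which leukocytes bind vessel walls, was at 0.765, 0.459 and 0.553 CPM in MG and between 30.1 and 152 CPM elsewhere. Without KC replicate 1, 2 or 3 a second integrin subunit was called higher, and the call of Itgb7 ended without AM replicate 1 (-1.29). In the Ms4a family, whose members have similar sequences, 4 of 11 were lower and none was higher.

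Genes that mark disease-associated MG in models of neurodegeneration were compared as a list of 24, of which 2 were higher (Trem2 and Serpine2) and 6 were lower (Lpl, Clec7a, Axl, Lyz2, Fth1 and Ccl6). Clec7a, the receptor dectin-1, was at 9.09, 8.00 and 10.5 CPM in MG and between 71.0 and 928 CPM elsewhere. Lyz2, lysozyme, was at 204, 214 and 246 CPM in MG, at 6605, 9063 and 6213 CPM in KCs, at 125183, 117715 and 118525 CPM in PMs and at 55120, 40484 and 35695 CPM in AMs. Serpine2, an inhibitor of thrombin and plasmin, was at 867, 811 and 863 CPM in MG and at most 2.41 CPM elsewhere.

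Immediate early and heat shock genes were examined because the preparation differed between the tissues. Of 34 tested, 3 were higher (Jun, Egr1 and Rhob) and 1 was lower (Nr4a1), against 4.49% and 5.56% of all genes tested. Rhob was at 754, 643 and 624 CPM in MG and at most 79.1 CPM elsewhere. Fos was at 682, 354 and 536 CPM in MG, above KCs (1.88 ± 0.39) and PMs (4.90 ± 0.45), while AMs held 1187, 978 and 995 CPM. None of the 9 heat shock genes was called in all 3 contrasts. The count of higher genes was 5 without MG replicate 2 and 5 without AM replicate 3, and that of lower genes was 2 without KC replicate 3. The call of Egr1 ended with all 24 libraries in 1 model. The part of the preparation in these values was not tested.

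Of 34 genes of the cytoskeleton and of motility, 3 were higher (Arhgap5, Rhoh and Rhob) and 11 were lower. Annexins, galectins and S100 proteins were among the lower genes, together with Vim, the intermediate filament vimentin, at 3.29, 1.58 and 1.33 CPM in MG and between 108 and 2240 CPM elsewhere. Anxa1 was at 0.556, 0.258 and 0.0755 CPM in MG and between 27.9 and 1070 CPM elsewhere, and Lgals3, galectin-3, was at 5.63, 4.59 and 1.69 CPM in MG and between 327 and 2794 CPM elsewhere. Arhgap5, an inhibitor of the GTPase RhoA, was at 433, 371 and 403 CPM in MG and at most 53.9 CPM elsewhere. Without KC replicate 1, the counts were 5 higher and 8 lower. Among the lower genes, the call of S100a4 ended without any of 4 single libraries (-4.03 to -1.31), that of S100a10 without any of 4 (-2.55 to -0.30) and that of Arpc1b, at the threshold, without any of 11 (-1.499 to -1.34).

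Cell cycle genes had the largest share of lower genes among the 31 lists, with 18 of 32 lower than in each other tissue and none higher, and 19 lower without KC replicate 1. The median log2 difference was -4.47 from KCs, -1.93 from PMs and -4.64 from AMs. Mki67, the proliferation marker Ki-67, was at 1.92, 0.545 and 1.58 CPM in MG, at 167, 31.9 and 66.2 CPM in KCs, at 12.6, 10.9 and 11.9 CPM in PMs and at 37.5, 56.3 and 44.5 CPM in AMs. Top2a, a DNA topoisomerase of dividing cells, was at 2.46, 0.602 and 0.905 CPM in MG and at least 10.3 CPM elsewhere. Ccnb2, a mitotic cyclin, was at 0.927, 0.459 and 0.956 CPM in MG and at least 5.07 CPM elsewhere. For these 3 genes all MG libraries lay below all others.

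The counts for ribosomes and the respiratory chain depended on single libraries. Of 84 cytosolic ribosomal protein genes 14 were lower and none was higher, with medians of -1.14, -2.23 and -1.38, and none was lower without KC replicate 1, against 27 without KC replicate 3. Leaving out any MG library gave 3 to 9, and leaving out AM replicate 1, 2 or 3 gave 7, 6 and 7. Of 80 nuclear respiratory chain genes 13 were lower, with medians of -1.08, -1.75 and -1.54, and the count was 3 without KC replicate 1, 22 without KC replicate 3 and 8 without MG replicate 3. Short transcripts moved the same way in general: among 5 groups of protein-coding genes by exon length, the shortest (2602 genes, up to 2427 bases) had a median log2 difference of -0.51 from the mean of the other tissues, and the longest 0.21, and 66.7% of the ribosomal and 73.8% of the respiratory chain genes fell in the shortest group. The part of transcript length in these medians was not tested. mt-Co1, the one gene of the mitochondrial genome called among 8, was at 149.6, 155 and 143 CPM in MG and between 419 and 1107 CPM elsewhere, and lost its call with all 24 libraries in 1 model.

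In the single contrasts, 3 genes per direction were taken from the extremes. Against KCs, MG were lowest for Cd163, Timd4 and Vsig4. Cd163, a receptor for haptoglobin and hemoglobin, had no read in MG and was at 525, 1410 and 2508 CPM in KCs, at least 19232-fold higher than in MG. Timd4 encodes TIM-4, by which KCs were sorted. Against PMs, MG were lowest for Padi4, Timd4 and Selp, and highest for F11r, Siglech and Cx3cr1. Padi4, which turns arginine of histones into citrulline, and Selp, which encodes P-selectin, had no read in MG and were at 2766, 2713 and 2351 CPM and at 1441, 1602 and 1310 CPM in PMs. F11r, a junctional adhesion molecule, was at 961, 989.5 and 996 CPM in MG and had 2 reads in PMs, but AMs held 461, 432 and 402 CPM.

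Against AMs, MG were highest for Tmem119, Fcrls and Rasgrp3, and lowest for Krt19, Car4 and Krt79. Rasgrp3, an activator of Ras, was at 371, 355 and 372 CPM in MG and had no read in AMs, at least 4196-fold higher, while PMs held 103, 118 and 97.5 CPM. Krt19 and Krt79 encode keratins, and Car4 a carbonic anhydrase. Krt19, Krt79 and Car4 had no read in MG and were at 1012 to 1151 CPM, 793 to 845 CPM and 979 to 1071 CPM in AMs. Lung epithelium markers summed to 178 to 234 CPM in AMs and to at most 2.14 CPM in MG, and their part in the keratin values was not tested. Against the mean of the 3 tissues, the ranking gave Siglech, Slc2a5 and Sall3 as highest and Rara, Ms4a8a and Fpr1 as lowest, all of which were also among the genes ranked against the nearest tissue.

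Some genes were called in opposite directions. Itga6, an integrin chain of laminin receptors that was named after its values were seen, was at 548, 487 and 434 CPM in MG, above KCs (6.26 ± 0.59) and AMs (3.85 ± 0.53) and below PMs (-1.76 ± 0.48), which held 1533, 1912 and 1546 CPM. Of the 15732 genes tested, 406 were higher than at least 1 tissue and lower than at least 1 other, 1741 were higher than exactly 1 and 899 than exactly 2 without being lower than any, 1584 were lower than exactly 1 and 1098 than exactly 2 without being higher than any, and 8423 were called in no contrast.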

How the data were processed

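RNA was sequenced from sorted MG, KCs, PMs and AMs with a SMARTer v4 kit, which does not keep the strand, and Nextera XT libraries. Per the methods of the study, the authors trimmed reads with Trimmomatic, and used STAR to align them to mm10 and to count them per gene. They deposited 1 table of raw read counts per gene. The submitters' processing notes name Trimmomatic 0.36, STAR 2.5.2b and the human build hg19, which differs from mm10, while all identifiers are mouse Ensembl genes. The methods of the study also name other versions of both tools than these notes. How reads that fit several genes, or the strand, were treated in counting is not given in the sources used here. Of 45706 genes listed, 45143 matched a symbol, and 15732 passed edgeR's filterByExpr with a minimum count of 10.

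The 12 ex vivo libraries were fitted together by the quasi-likelihood test of edgeR 4.0.16 (R 4.3.3) with TMM normalization, with Benjamini-Hochberg adjustment across the whole table. This test was used in place of the limma-voom fit of the study, which was an alternative, as was DESeq2 1.42.0. A call needed a log2 fold change beyond 1.5 and an adjusted p below 0.05. At least folds use a floor of 3 reads per library, and ratios on 1 to 3 reads carry exact counting intervals. Scripts were tested on simulated data. The genes named were the 15 farthest from the nearest tissue per direction (called against each tissue, average log2 CPM above 5, no overlap between MG and the other libraries), 3 per direction and single contrast, members of 31 gene lists and 18 marker lists, and genes that the study names for MG. The members and lists were chosen with earlier results of these data known. The 12 cultured libraries were left out. Results for some genes are not reported here.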

Additional observations from a re-analysis of the deposited data

How the results depend on the processing

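No named gene called in all 3 contrasts changed the direction of its difference from the nearest tissue under any alternative in which it could be compared. Some of these genes had no value under DESeq2, in the separate fits or with the filter at 1 CPM, and were not compared there. With a fold change above 1.5 in place of a log2 fold change above 1.5, the calls numbered 6184 against KCs, 6577 against PMs, 8145 against AMs and 7131 against the mean of the 3 tissues, and 1238 genes were higher and 1662 lower than in every other tissue, since the threshold is then lower. Leaving out 1 library at a time gave 3233 to 4280 calls against KCs, 3581 to 4532 against PMs, 4686 to 5837 against AMs and 3681 to 4550 against the mean, with 612 to 871 genes higher (most without KC replicate 1) and 727 to 940 lower than in every other tissue. Whether higher or lower genes were more numerous did depend on the fit: limma-voom gave 1032 higher and 701 lower genes, 59.5% of them higher against 44.7% in the edgeR fit, 2074 higher and 2064 lower against KCs, and moved the median of all genes against KCs by 0.11. The remaining alternatives (another normalization, DESeq2, other filters, each contrast on its own 6 libraries and all 24 libraries in 1 model) gave 589 to 791 higher and 678 to 912 lower genes, and the contrast with the mean could not be fitted on 6 libraries. Of the named genes called in all 3 contrasts, 39 lost the call under at least 1 of 21 alternatives, in 161 cases together and with the same direction each time. Beyond the calls that ended without 1 library, those of C2, Ciita, Nt5e, Oas3 and S100a8 ended under limma-voom, those of C2, Cacna1d, Egr1, Gabbr1, Plxna4, Slc1a3, Slco2b1, Stab1, Zbp1 and mt-Co1 with all 24 libraries in 1 model, and that of Adora2b with each contrast on its own 6 libraries. The causes were not tested. In addition, 25 of the 62 counts over gene lists moved by over 1.5 times, or from or to 0, under at least 1 alternative. They moved in 63 cases together, 21 of them with a fold change above 1.5 in place of a log2 fold change above 1.5. At this depth a gene without a read is limited to 0.0695 to 0.110 CPM per library.

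With the replicate number as a replicate block, 667 genes were higher and 789 lower than in every other tissue, of which 637 and 784 were shared with the fit without it. Nothing in the sources says that libraries with the same number belong together. The deviations of 18 same-numbered pairs correlated at -0.065 to 0.0443, and those of pairs with other numbers at -0.0785 to 0.086. Whether libraries with the same number share an animal or a day is not known.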
